A study of Mus musculus with 12 samples.

Results

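Genes for chromatin remodelers that use ATP to move, eject or exchange nucleosomes, and for proteins with a bromodomain, a fold that binds acetylated lysines on histones, were followed in nuclear RNA of adult mouse cardiomyocytes. The members were all rows of the count table whose symbol named a CHD, SMARC, ARID, BAZ, INO80 or BRD gene, together with Ep400, Srcap, Atrx, Hells, Bptf, Dpf1, Dpf2, Dpf3 and Pbrm1. This gave 59 of 46983 genes, after 1 antisense symbol ending in os was left out. Of these, 57 could be placed by role and 2 were pseudogene symbols, Smarca5-ps and Smarce1-ps1.

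Control animals were adult Myh6-MCM mice given tamoxifen, and YAP5SA animals were adult Yap5SA+/tg; Myh6-MCM mice given tamoxifen. Both groups therefore carried the inducible Cre recombinase, driven by the cardiomyocyte promoter of Myh6, and both received the drug. YAP5SA is a YAP protein whose serines targeted by the Hippo kinases are changed to alanine, and YAP is a co-activator of transcription. Nuclei were selected on beads through PCM1, a centriolar satellite protein, and there were 2 nuclear RNA libraries in each group. Whether the libraries of a group are separate animals is not in the labels, and the spread behind each p-value is that between libraries, which may be technical.

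Remodelers fall into families by their ATPase. SWI/SNF (BAF) complexes slide and evict nucleosomes at enhancers and promoters, ISWI complexes space nucleosomes evenly, CHD proteins include the ATPases of the repressive NuRD complex, and the INO80 group exchanges histone variants. In the heart the composition of SWI/SNF complexes is known to change during development, with the cardiac subunits encoded by Smarcd3 and Dpf3 and the ATPase BRG1, encoded by Smarca4, needed for heart formation. BET proteins carry paired bromodomains and bind acetylated histones at active genes.

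The table as a whole held 7850661 to 15012122 counts per library, and a count of 0 allowed up to 3 counts, or 0.202 to 0.397 CPM, which is the count relative to the scaled library total, with counting error only. The biological coefficient of variation was 34.3% between the control libraries and 8.44% between the YAP5SA libraries. All 10 cardiomyocyte markers checked had counts in every library. Of these 0 were called, but all 10 had a negative log2 fold change, with a median of -1.04. They summed to 13541 and 20332 CPM in control and 8539 and 8903 CPM in YAP5SA, and 4 were lower at an unadjusted p under 0.05. Of 13 macrophage and monocyte markers 6 were called higher in YAP5SA and 0 lower, with summed levels of 934 and 628 CPM in control and 1525 and 1832 CPM in YAP5SA. Of 12 endothelial markers 2 were called lower, with summed levels of 2458 and 1579 against 1268 and 1190 CPM, and none of the macrophage or endothelial markers was at 0. Of 10 fibroblast and 9 smooth muscle and pericyte markers 1 each was called higher and 0 lower, with medians of -0.36 and -0.85 on the log2 scale. The fibroblast markers summed to 8779 and 6998 CPM in control and 6662 and 8297 CPM in YAP5SA. The smooth muscle and pericyte markers summed to 1720 and 1546 CPM in control and 1596 and 1742 CPM in YAP5SA. In bulk nuclear RNA, fewer cells of a type and less RNA per cell cannot be told apart.

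Levels of remodeler and bromodomain genes were close between the groups. Of the 59 members, 56 passed the filter on low counts and were tested with edgeR's quasi-likelihood test across 17715 genes, with YAP5SA compared with control. Chd5 fell and 0 members rose, so that 1.79% of the tested members were called, beside 4.12% of all tested genes. Called higher were 3.12% of all tested genes and called lower 0.999%. At an unadjusted p under 0.05, 4 members were higher and 7 lower, beside 12.7% and 10.9% of all tested genes. DESeq2 called Arid5b, Baz1a and Hells higher and Chd5 lower, beside 8.53% of its 18702 genes (5.72% higher and 2.82% lower). The limma-voom fit called 0 members, beside 4.02% of genes (3.12% higher and 0.903% lower). With no filter on low counts 3 members were called in each direction, beside 5.65% and 5.53% of genes (11.2% in all). With the replicate number as a block 0 were called higher and Chd5 lower, beside 1.81% and 0.632% (2.44% in all). All 59 members summed to 5299.7 and 5228 CPM in control and 5162 and 5130.4 CPM in YAP5SA.

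The median log2 fold change of the 56 tested members was -0.044, beside -0.057 over all tested genes, and the median of its absolute size was 0.23 beside 0.39. An absolute log2 fold change of at least 1 was found for 3 members, Chd5, Hells and Arid5b, beside 17.3% of all tested genes. For 41 members (73.2%) the 95% interval of the log2 fold change lay within -1 and 1, so that a change of 2-fold or more lay outside it, beside 38.7% of all tested genes. The members were also more abundant, with a median of 86.2 CPM beside 13.6 CPM, and the part of abundance in these shares was not tested. The groups did not overlap for 38 members, with YAP5SA above control for 17 (30.4%) and below for 21 (37.5%), beside 28.1% and 28.3% of all tested genes.

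**Figure D1:**
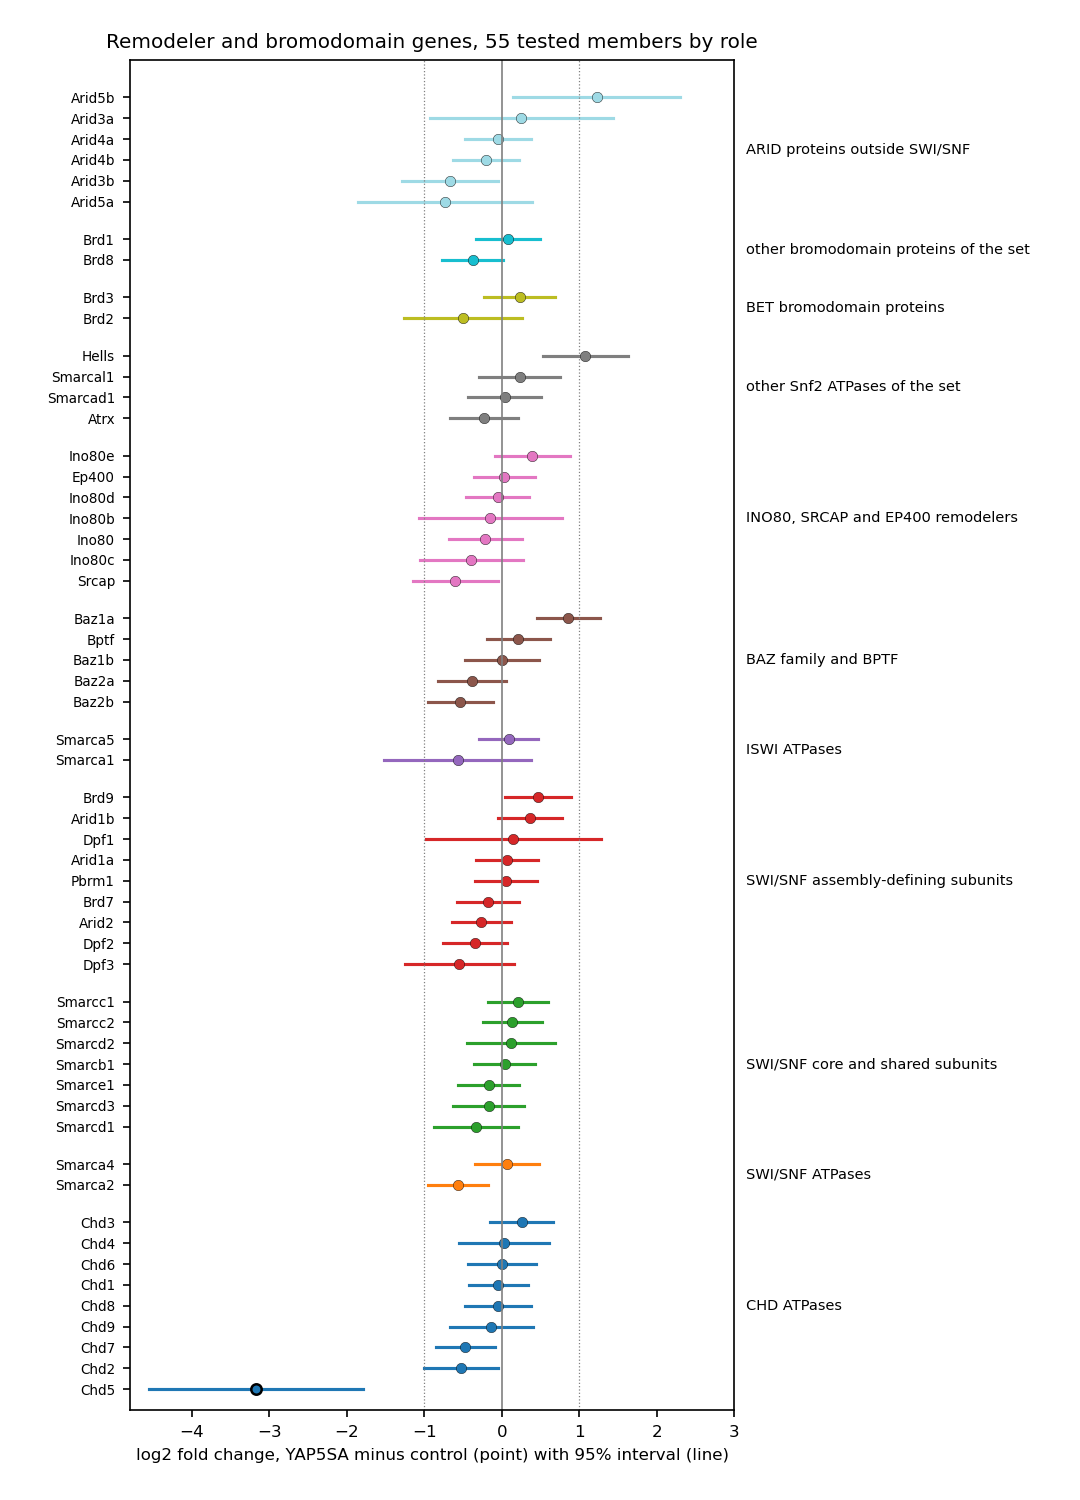
Log2 fold change (YAP5SA minus control, x axis) of 55 tested members, grouped by role, with 95% intervals from the edgeR fit on 2 libraries per group. Dotted lines mark -1 and 1, and the thick outline marks Chd5, the member past the adjusted threshold, at -3.17. The interval lies within the dotted lines for 40 of the members drawn.

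The call of Chd5 and the number of calls moved with single libraries. Without control replicate 1, 8 members were called higher and 11 lower, and without control replicate 2, 6 higher and 14 lower, beside 36.2% (18.8% higher, 17.4% lower) and 38.3% (19.7% higher, 18.6% lower) of all genes in those fits. Without YAP5SA replicate 1 or YAP5SA replicate 2, 0 members were called, beside 0.388% (0.362% higher, 0.0266% lower) and 0.143% of genes. Each such fit takes the spread of the lone library from the other group's pair. The members' share called was 33.9% without control replicate 1 and 35.1% without control replicate 2, near the share of all genes in both fits.

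The CHD proteins carry paired chromodomains beside their ATPase. CHD3, CHD4 and CHD5 are alternative ATPases of NuRD, and CHD5 is best known from neurons and testis. Chd5 (chromosome 4, 152338651 to 152390194, mm10) had 231 and 59 counts in control and 26 and 19 in YAP5SA, which is 20.9 and 7.80 CPM against 1.75 and 1.44 CPM. Both YAP5SA libraries lay below both control libraries, and the control libraries lay further apart than the YAP5SA libraries. Chd5 fell by 3.17 on the log2 scale (SE 0.551, 95% interval -4.55 to -1.79, adjusted p = 0.0465), from 14.4 ± 9.28 to 1.597 ± 0.219 CPM (SD, n = 2). The log2 fold change was -2.27 without control replicate 1 and -3.66 without control replicate 2. The call was lost with limma-voom (adjusted p = 0.0686), without YAP5SA replicate 1 (adjusted p = 0.125) and without YAP5SA replicate 2 (adjusted p = 0.281), and over the 11 alternatives the adjusted p ran from 4.17e-38 to 0.281.

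The promoter of the 1 called member is shown for its CpG-rich sequence and annotated start. The RefSeq promoter (GRCm38.p6, plus strand, chr4:152338401-152338700) runs from 250 bases before to 50 bases after the annotated start, holds 32 CpG sites and is printed with the transcribed part in capitals.

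Chd5: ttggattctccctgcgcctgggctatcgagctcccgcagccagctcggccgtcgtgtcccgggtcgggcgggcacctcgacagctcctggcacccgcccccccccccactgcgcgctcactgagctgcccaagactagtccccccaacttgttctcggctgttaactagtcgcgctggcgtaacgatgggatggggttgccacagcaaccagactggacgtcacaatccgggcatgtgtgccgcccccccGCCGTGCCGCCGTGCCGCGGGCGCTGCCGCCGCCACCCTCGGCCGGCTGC

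Neither the TEAD core GGAATG nor the E2F core GCGGGAA was found in it on either strand. An exon of the antisense model Gm13645 overlaps Chd5 by 101 bases. Markers of neurons and Schwann cells were sparse: of 12 such genes 7 could be tested, 0 were called with edgeR, 1 was higher and 0 lower at an unadjusted p under 0.05, and they summed to 20.9 and 15.1 CPM in control and 14.4 and 15.04 CPM in YAP5SA. Their part in the level of Chd5 was not tested. Among them Snap25 and Nefl were at 0 in control replicate 2 and YAP5SA replicate 2.

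Per kilobase of exon, both other NuRD ATPase genes were above Chd5 in every library. Chd4, which encodes the main NuRD ATPase, measured 438 and 320 CPM in control and 371 and 404 CPM in YAP5SA. The groups overlapped, with a log2 fold change of 0.031 (95% interval -0.55 to 0.61, adjusted p = 0.951). Chd3 measured 36.6 and 33.4 CPM in control and 41.5 and 42.1 CPM in YAP5SA, a log2 fold change of 0.26 (95% interval -0.15 to 0.66, adjusted p = 0.390). Scaled by exon length, Chd4 made up 89.3% of the counts of these 3 genes in both control libraries and 90.1% and 90.7% in YAP5SA. The share of Chd5 was 3.57% and 1.82% in control and 0.356% and 0.271% in YAP5SA. Whether the deposited counts cover exons alone is not stated, so shares and levels per kilobase depend on that choice of length.

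Of the remaining CHD genes, Chd7 and Chd2 were lower in YAP5SA in every library. Chd7, which encodes the ATPase mutated in CHARGE syndrome, measured 126 and 124 CPM in control and 91.9 and 88.9 CPM in YAP5SA. The pairs were tight and apart, with a log2 fold change of -0.47 (SE 0.152, 95% interval -0.85 to -0.090), but its adjusted p of 0.148 missed the threshold. Chd2 measured 220 and 201 CPM against 162 and 129.8 CPM (log2 fold change -0.53, SE 0.191, adjusted p = 0.1797). Over the 11 alternatives the log2 fold change ran from -0.52 to -0.42 for Chd7 and from -0.67 to -0.36 for Chd2. Chd1, which encodes a remodeler tied to transcribed genes, measured 132 and 135 CPM against 129 and 131 CPM. Chd6, Chd8 and Chd9 overlapped between the groups, with log2 fold changes of 0.0021, -0.049 and -0.13, and intervals that together ran from -0.67 to 0.44. Counts of Chd2 may include those of the same-strand model 1810026B05Rik, which shares 2628 exon bases.

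SWI/SNF complexes hold either BRG1 or BRM as ATPase, encoded by Smarca4 and Smarca2. Smarca4 measured 167 and 150.2 CPM in control and 162 and 171 CPM in YAP5SA, with a log2 fold change of 0.070 (95% interval -0.35 to 0.49, adjusted p = 0.835). Smarca2 (chromosome 19, 26605050 to 26778322) measured 73.7 and 78.4 CPM in control and 51.1 and 52.1 CPM in YAP5SA. Its groups did not overlap and each pair was tight. The log2 fold change of Smarca2 was -0.56 (SE 0.155, 95% interval -0.95 to -0.17), with an adjusted p of 0.111 that missed the threshold. That log2 fold change ran from -0.61 to -0.48 over the 11 alternatives. Per kilobase of exon, Smarca2 made up 16.7% and 19.2% of the counts of this pair of genes in control and 12.5% and 12.1% in YAP5SA. With raw counts in place of counts per kilobase the share of Smarca2 differed by -8.80 percentage points between the groups, and with counts per kilobase by -5.59.

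The 7 core and shared SWI/SNF subunits, which every or most assemblies hold, lay between -0.34 (Smarcd1) and 0.21 (Smarcc1) on the log2 scale. All 7 intervals lay within -1 and 1, beside 38.7% of all tested genes. With edgeR 0 were called and 0 had an unadjusted p under 0.05, beside 4.12% and 23.7% of all tested genes. With DESeq2 or limma-voom 0 were called, beside 8.53% and 4.02% of the genes in those fits. Smarcb1, which encodes the core subunit SNF5, measured 48.7 and 53.4 CPM in control and 52.8 and 51.8 CPM in YAP5SA. Smarcc1 and Smarcc2, which encode the paired scaffold subunits, were slightly higher in both YAP5SA libraries, with 78.6 and 75.7 against 85.2 and 93.3 CPM for Smarcc1. Their ratio was steady, with Smarcc1 at 39.4% and 38.9% of the pair in control and 39.7% and 40.9% in YAP5SA. Smarcd3, which encodes the cardiac and muscle form of the BAF60 subunit, measured 23.7 and 28.0 CPM in control and 22.6 and 23.4 CPM in YAP5SA. Its share among the Smarcd genes overlapped between the groups, from 20.7% to 30.0% in control and from 22.9% to 24.1% in YAP5SA. The share of Smarcd1 was 34.5% and 31.4% in control and 27.7% and 28.0% in YAP5SA, and that of Smarcd2 44.8% and 38.6% against 48.2% and 49.0%. Exons of Smarcd3 overlap Chpf2 on the other strand by 2466 bases, so its counts are uncertain.

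**Figure D2:**
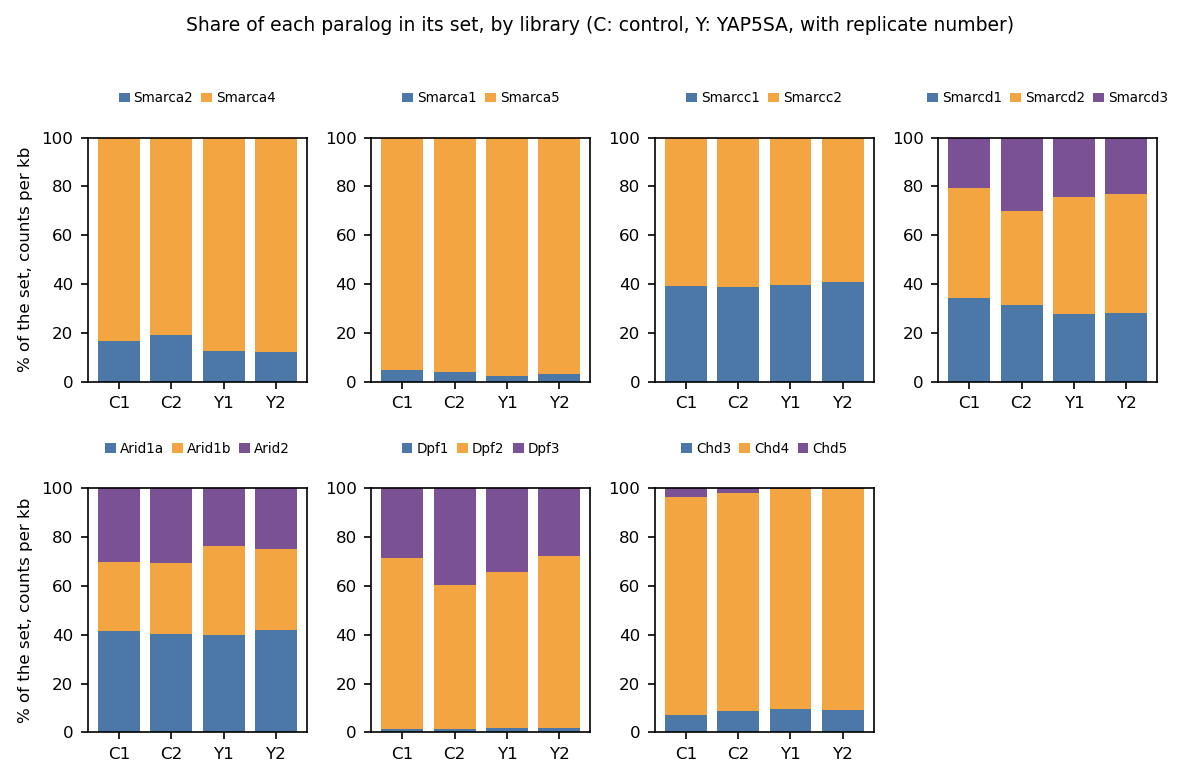
Share of each paralog in the counts per kilobase of exon of its set (y axis, percent) in each of the 4 libraries (C1 and C2, control; Y1 and Y2, YAP5SA), for 7 sets of alternative subunits. Smarca2 takes 12.5% and 12.1% of its pair in YAP5SA against 16.7% and 19.2% in control, and Smarcc1 and Smarcc2 keep nearly the same shares.

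The subunits that define an assembly split in both directions. ARID1A and ARID1B mark the canonical BAF complex, ARID2, PBRM1 and BRD7 mark PBAF, and BRD9 marks the non-canonical complex. Brd9 measured 22.1 and 20.4 CPM in control and 30.3 and 28.4 CPM in YAP5SA, higher in both libraries, with a log2 fold change of 0.47 (SE 0.172, 95% interval 0.037 to 0.90, adjusted p = 0.185). Arid1b measured 121 and 128 CPM against 168 and 152 CPM (log2 fold change 0.36, adjusted p = 0.251). Arid1a differed by 0.064 on the log2 scale, with 164 and 161 CPM in control and 166 and 174 CPM in YAP5SA. Of the PBAF genes, Pbrm1 measured 189 and 185 CPM against 196 and 193 CPM, Arid2 111 and 115 CPM against 92.0 and 95.8 CPM, and Brd7 66.7 and 73.6 CPM against 63.1 and 60.8 CPM. Among the 3 ARID genes the share of Arid1b was 28.1% and 29.1% in control and 36.7% and 33.4% in YAP5SA, that of Arid2 30.2% and 30.7% against 23.6% and 24.7%, and that of Arid1a stayed between 39.7% and 41.9% in all 4 libraries. None of these genes passed the threshold, which 4.12% of all tested genes passed. Of the 9 assembly-defining genes 1, Brd9, had an unadjusted p under 0.05, beside 23.7% of all tested genes.

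DPF1, DPF2 and DPF3 are alternative BAF45 subunits with paired PHD fingers that read modified histones, and Dpf3 is known from heart and skeletal muscle. Dpf3 measured 13.4 and 19.8 CPM in control and 12.7 and 9.95 CPM in YAP5SA, a log2 fold change of -0.55 (95% interval -1.25 to 0.15, adjusted p = 0.302). The groups did not overlap, but control replicate 1 lay closer to YAP5SA replicate 1 than to control replicate 2. Dpf2, the widely expressed form, measured 50.2 and 45.5 CPM against 36.1 and 39.0 CPM. Dpf1, the neuronal form, had 9 and 6 counts in control and 13 and 12 in YAP5SA. The share of Dpf3 in the set was 28.7% and 39.7% in control and 34.4% and 27.6% in YAP5SA, so that it overlapped between the groups.

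ISWI ATPases and their BAZ partners followed, with Baz1a the member nearest to the threshold. Smarca5, which encodes SNF2H, measured 107 and 105 CPM in control and 111 and 115 CPM in YAP5SA, a log2 fold change of 0.090 (95% interval -0.29 to 0.47). The related Smarca1 was low throughout, with 49 and 26 counts in control and 32 and 42 in YAP5SA, and took 2.41% to 5.00% of the pair. Baz1a (chromosome 12, 54892989 to 55014348) encodes ACF1, the partner of SNF2H in the nucleosome-spacing complexes ACF and CHRAC. It measured 43.1 and 39.1 CPM in control and 71.9 and 77.1 CPM in YAP5SA. The groups were apart by much more than either pair spread. Exons of Baz1a share 346 bases with the same-strand model Gm20403. The log2 fold change of Baz1a was 0.86 (SE 0.163, 95% interval 0.45 to 1.26), with an adjusted p of 0.0533 that missed the threshold. It passed with DESeq2 (adjusted p = 0.0126), and the adjusted p ran from 1.83e-08 to 0.620 over the alternatives.

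Baz2b and Baz2a, which encode partners of ISWI ATPases in other complexes, were lower. Baz2b measured 106 and 117 CPM in control and 82.3 and 71.8 CPM in YAP5SA (log2 fold change -0.54, SE 0.168, adjusted p = 0.139). Baz2a, which encodes a part of the nucleolar complex NoRC that silences ribosomal DNA, measured 129.6 and 106 CPM against 88.8 and 92.0 CPM (adjusted p = 0.262). Baz1b, which encodes WSTF, overlapped between the groups at 146 and 188 CPM against 169 and 166 CPM. Bptf, which encodes the large subunit of the NURF complex, measured 157 and 159.8 CPM in control and 179.6 and 188 CPM in YAP5SA (log2 fold change 0.21, 95% interval -0.19 to 0.62).

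**Figure D3:**
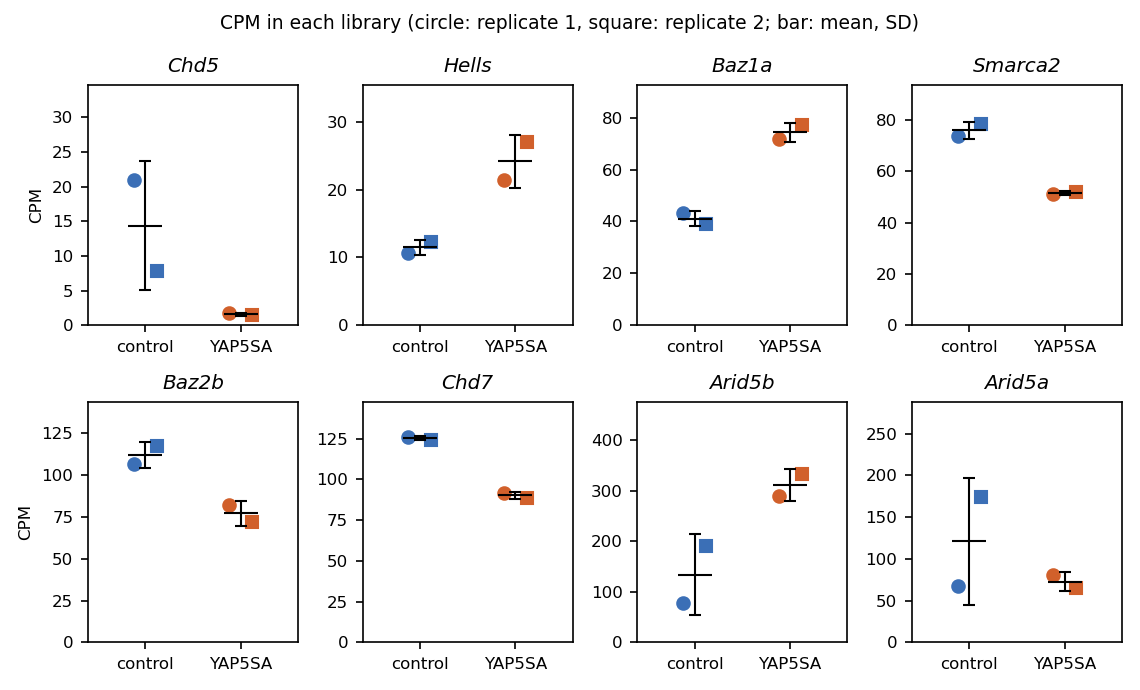
CPM (y axis, linear, from 0) in each control and YAP5SA library for 8 members, the 7 with the smallest p-values and Arid5a; circles are replicate 1, squares replicate 2, and bars the mean and SD of 2 libraries. Baz1a, Hells, Smarca2, Baz2b and Chd7 form tight, separate pairs, while the control libraries of Chd5, Arid5b and Arid5a lie far apart.

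The 7 members of the INO80 group are the ATPases Ino80, Srcap and Ep400 and 4 smaller INO80 subunits. They had 0 calls with edgeR, DESeq2 or limma-voom, beside 4.12%, 8.53% and 4.02% of the genes tested in each fit. At an unadjusted p under 0.05 with edgeR there was 1 gene, beside 23.7% of all tested genes. Ino80, the ATPase that names the group, measured 92.1 and 118 CPM in control and 94.2 and 87.6 CPM in YAP5SA. Ep400, which encodes the ATPase of the TIP60 complex, measured 144 and 135 CPM against 142 and 145 CPM (95% interval -0.36 to 0.43). Srcap, which encodes the ATPase that deposits the variant H2A.Z, was lower in both YAP5SA libraries, with 30.6 and 24.3 CPM in control and 20.1 and 16.3 CPM in YAP5SA (log2 fold change -0.60, SE 0.218, adjusted p = 0.182). Its exons share 9738 bases with the same-strand model Gm42715, so that its counts depend on how shared reads were assigned. Ino80e measured 15.9 and 14.9 CPM against 18.8 and 21.9 CPM (adjusted p = 0.288). The 4 smaller INO80 subunits ran from -0.39 (Ino80c) to 0.40 (Ino80e) on the log2 scale. Exons of Ino80e overlap Doc2a by 1103 bases and Hirip3 by 150 bases on the other strand, so its counts are uncertain. Ino80d overlaps the antisense symbol that the choice of members left out.

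Of the 4 remaining Snf2-family members, Hells had the smallest adjusted p. HELLS (LSH) is a helicase-like ATPase needed for DNA methylation at repeats and known from dividing cells. Hells (chromosome 19, 38930915 to 38971051) measured 10.7 and 12.3 CPM in control and 21.4 and 27.0 CPM in YAP5SA. Both YAP5SA libraries were well above control. The log2 fold change of Hells was 1.08 (SE 0.219, 95% interval 0.53 to 1.62), a 2.11-fold difference with an adjusted p of 0.0607, and it passed with DESeq2 (adjusted p = 0.0185). Genes of DNA replication and cell division were higher in the same libraries, with 10 of 20 listed genes called higher and 0 lower, a median log2 fold change of 1.29, and summed levels of 410 and 460 CPM in control and 940 and 1187 CPM in YAP5SA. Markers of macrophages, cells that can divide, were higher as given above, and the part of either in the level of Hells was not tested.

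The promoter of Hells is shown because it carries an E2F core, the motif bound by the factors that drive genes of S phase. The RefSeq promoter (GRCm38.p6, plus strand, chr19:38930740-38931039) is printed with the motif in capitals, whose first base lies 61 bases before the RefSeq start. That start lies downstream of the GENCODE gene start given above, so the motif falls inside the GENCODE model of Hells.

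Hells: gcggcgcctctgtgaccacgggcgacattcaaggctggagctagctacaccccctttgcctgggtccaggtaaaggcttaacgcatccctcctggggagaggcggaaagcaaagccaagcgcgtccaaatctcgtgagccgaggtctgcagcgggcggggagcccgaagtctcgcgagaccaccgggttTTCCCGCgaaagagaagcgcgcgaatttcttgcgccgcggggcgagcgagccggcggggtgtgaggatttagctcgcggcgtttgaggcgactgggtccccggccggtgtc

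The E2F core, GCGGGAA or its reverse complement TTCCCGC, was searched on both strands in 32851 RefSeq promoters of 300 bases, of which 4.6% held it. Of 59 members 44 had a promoter in the table, and 5 of these held it, in 5 of their 54 promoters (9.26%), namely Arid1a, Brd7, Hells, Smarcb1 and Smarcd1. Beside 1.08 for Hells, the log2 fold changes of the others were 0.064 for Arid1a, -0.18 for Brd7, 0.035 for Smarcb1 and -0.34 for Smarcd1. The part of the motif in these levels was not tested. The TEAD core, GGAATG or CATTCC, stood in 14.7% of all promoters and in 7 of the 54 member promoters (13.0%), which belong to 6 members, namely Baz2b, Brd2, Brd9, Chd6, Ino80e and Smarcd3. The motifs share the letters GGAA and can overlap, and a match is a description of the sequence.

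Atrx, which encodes the ATPase that deposits a histone variant at heterochromatin, measured 184 and 217 CPM in control and 170.4 and 172 CPM in YAP5SA (95% interval -0.67 to 0.22). Smarcal1, an annealing helicase gene of replication forks, measured 25.4 and 34.9 CPM against 35.7 and 34.9 CPM. Smarcad1 overlapped, at 58.2 and 71.9 CPM against 71.2 and 62.2 CPM.

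Brd2 and Brd3 encode BET proteins. Brd3 measured 40.7 and 32.8 CPM in control and 43.5 and 42.9 CPM in YAP5SA, a log2 fold change of 0.23 (95% interval -0.22 to 0.69). Brd2 was at 403 CPM in control replicate 1 but at 227, 227 and 219 CPM in the other 3 libraries. Its log2 fold change was -0.50 (SE 0.302, 95% interval -1.26 to 0.26, adjusted p = 0.369), with -0.020 without control replicate 1 and -0.82 without control replicate 2. Brd2 overlaps H2-DMa on the other strand by 360 bases. Of the other bromodomain members, Brd8, a TIP60 complex subunit gene, measured 76.5 and 75.7 CPM against 61.8 and 55.5 CPM (adjusted p = 0.229), and Brd1, a scaffold gene of histone acetyltransferase complexes, overlapped between the groups at 86.0 to 99.98 CPM.

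The ARID genes outside SWI/SNF encode DNA-binding proteins, and 3 of them, Arid3a, Arid5a and Arid5b, differed widely between the control libraries. Arid5b, which encodes a partner of the histone demethylase PHF2, measured 77.0 and 190 CPM in control and 289 and 334 CPM in YAP5SA. The groups were apart, but the control libraries lay further apart than the YAP5SA libraries. The log2 fold change of Arid5b was 1.22 (SE 0.431, 95% interval 0.15 to 2.30, adjusted p = 0.170). It was 0.72 without control replicate 1 and 2.05 without control replicate 2. With DESeq2 Arid5b was called higher (adjusted p = 0.0357).

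Arid5a, which encodes a protein that stabilises inflammatory messenger RNAs, measured 67.3 and 175 CPM in control and 80.6 and 64.6 CPM in YAP5SA. Its groups overlapped, and control replicate 2 alone was high. Its log2 fold change of -0.73 (SE 0.448, adjusted p = 0.375) turned to 0.15 without control replicate 2. It was -1.26 without control replicate 1, and Arid5a was called lower with no filter on low counts (adjusted p = 0.0333). Arid3a was at 19.2 and 6.74 CPM in control and 16.04 and 15.3 CPM in YAP5SA, and Arid3b at 16.8 and 12.3 CPM against 9.43 and 8.96 CPM (adjusted p = 0.189). Arid4a and Arid4b, which encode subunits of SIN3 corepressor complexes, had log2 fold changes of -0.044 and -0.20. A difference of at least 1 between the control libraries on the scale log2(CPM + 0.5) was found for 4 members, Chd5, Arid5a, Arid5b and Arid3a, which is 7.14% beside 13.8% of all tested genes.

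The 3 members that did not pass the filter were nearly silent. Arid3c had 2 and 0 counts in control and 1 and 0 in YAP5SA. Smarca5-ps, by its symbol a pseudogene of Smarca5, had 23 and 5 counts in control and 2 and 4 in YAP5SA, and Smarce1-ps1 8 and 3 against 4 and 5. Reads of such copies can come from the parent gene, so their counts are uncertain. Scaled by exon length, Chd4 measured 54.7 and 39.95 CPM per kilobase in control and 46.3 and 50.4 in YAP5SA, above every other member described in each library. Smarca4 lay between 23.2 and 26.4 and Pbrm1 between 20.9 and 22.2 CPM per kilobase over the 4 libraries. Arid5b was at 7.65 and 18.9 CPM per kilobase in control and at 28.8 and 33.2 in YAP5SA, so that its place in the order differed between the groups. Dpf1, at 0.148 to 0.170 CPM per kilobase, was the lowest tested member in 3 libraries, and Chd5, at 0.151, in YAP5SA replicate 2.

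Partner genes that the choice of symbols did not take were followed in 6 lists of 92 symbols, of which 90 were in the table and 88 were tested. With edgeR 0 rose and 0 fell, and 9 were higher and 6 lower at an unadjusted p under 0.05, beside 12.7% and 10.9% of all tested genes. DESeq2 called 4, Actb, Atad2 and Ercc6l higher and Cecr2 lower, beside 5.72% and 2.82% of all its genes. The limma-voom fit called 0, beside 4.02% of genes. The median log2 fold change of the 88 was 0.063, beside -0.057 over all tested genes. Without control replicate 1 the number called was 24, without control replicate 2 it was 23, beside 36.2% and 38.3% of all genes in those fits, and it was 0 without either YAP5SA library.

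The SWI/SNF partner list had the lowest median, -0.52 over 13 tested genes. Of these, 5 were lower and 1 higher at an unadjusted p under 0.05, beside 10.9% and 12.7% of all tested genes. Gltscr1l, the gene of a subunit of the non-canonical complex, had the smallest adjusted p, with 49.4 and 36.0 CPM in control and 26.7 and 25.5 CPM in YAP5SA (log2 fold change -0.71, SE 0.212, adjusted p = 0.128). Phf10, which encodes the PBAF subunit BAF45a, measured 55.5 and 35.2 CPM against 26.6 and 28.7 CPM, and control replicate 1 was the high library for both. Actb, the gene of the actin that SWI/SNF shares with the cytoskeleton, measured 2139 and 1926 CPM against 3498 and 3897 CPM (adjusted p = 0.180). This list also held Brdt, a testis BET gene that is no SWI/SNF subunit, at a log2 fold change of -0.72, and the median of -0.52 includes it. Without Brdt the median lay midway between -0.52 (Bcl11b, 9 to 16 counts) and 0.033 (Ss18). Actl6b, the neuronal actin-related subunit gene, had 1 count in 1 YAP5SA library.

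NuRD partners had a median of 0.21 with 9 of 12 genes above 0, beside 8104 of all 17715 tested genes. All 12 intervals lay within -1 and 1, beside 38.7% of all tested genes. At an unadjusted p under 0.05, 1 was higher and 0 lower, beside 12.7% and 10.9%. Mta1, a NuRD scaffold gene, measured 49.7 and 53.8 CPM in control and 71.2 and 73.4 CPM in YAP5SA (log2 fold change 0.48, adjusted p = 0.149). INO80, SRCAP and TIP60 partners had a median of 0.021, with 12 of 24 genes above 0. Their smallest adjusted p was that of Ruvbl2, which encodes an ATPase of the hexameric ring of these complexes, at 18.6 and 16.9 CPM against 27.0 and 29.5 CPM (log2 fold change 0.67, adjusted p = 0.105). Among the 5 ISWI partners Cecr2, which also carries a bromodomain, measured 70.1 and 76.3 CPM in control and 42.4 and 33.0 CPM in YAP5SA, with a log2 fold change of -0.96 (SE 0.193) and an adjusted p of 0.0596.

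Of the 12 other Snf2-family ATPases, 5 lay above control in both YAP5SA libraries and 3 below, and of the 22 other bromodomain genes 10 lay above and 7 below, beside 28.1% and 28.3% of all tested genes. In each list 3 genes were higher and 0 lower at an unadjusted p under 0.05, beside 12.7% and 10.9% of all tested genes. Ercc6l, which encodes the mitotic helicase PICH, measured 4.89 and 3.17 CPM in control and 9.57 and 14.3 CPM in YAP5SA (log2 fold change 1.54, SE 0.357, adjusted p = 0.0775). Atad2, which encodes a bromodomain ATPase known from S phase, measured 28.1 and 27.1 CPM against 44.7 and 58.8 CPM (log2 fold change 0.91, adjusted p = 0.0711). Ercc6l, Atad2 and Hells were all higher in the libraries in which division genes were higher, and the part of dividing cells was not tested. The medians of these lists were 0.10 over 12 and 0.047 over 22 tested genes.

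**Figure D4:**
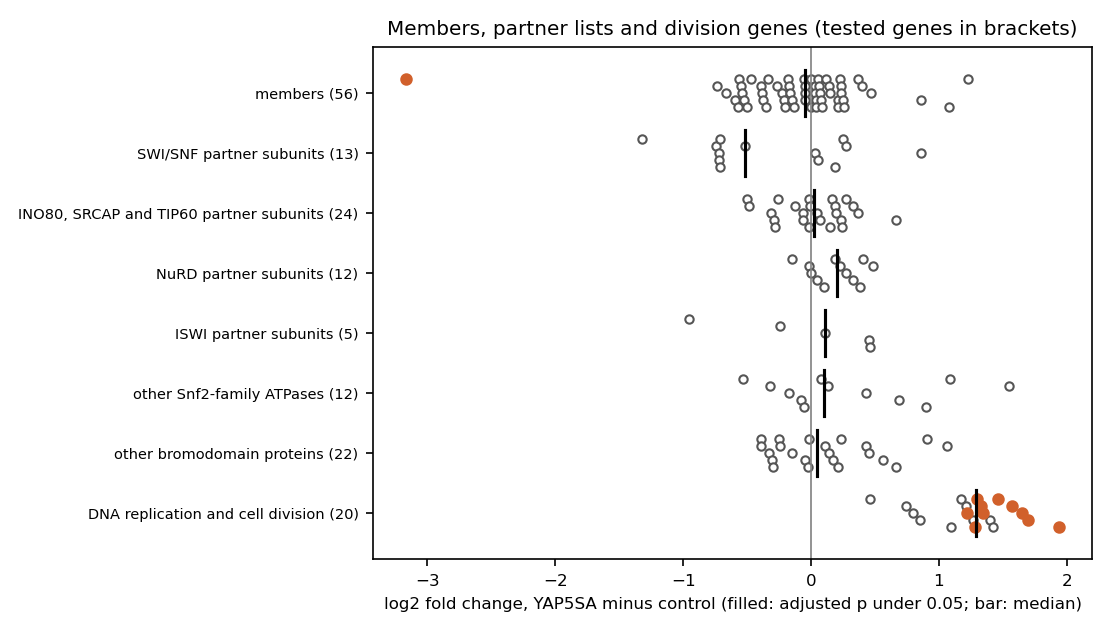
Log2 fold change (x axis, YAP5SA minus control) of each tested gene in the members, the 6 partner lists and the list of DNA replication and cell division genes; filled points passed an adjusted p of 0.05 and bars mark medians. Chd5 is the 1 filled point among members and partners, while 10 of 20 division genes are filled, with a median of 1.29.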

How the data were processed

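Nuclear RNA-seq libraries of PCM1-selected cardiomyocyte nuclei were compared, 2 per group; 8 further samples (other assays) were not analysed here. The deposited values are raw counts per gene symbol, deposited by the authors, who used a stranded kit with ribosomal RNA removal, mapped reads to mm10 with STAR and tested with DESeq2, per the labels' protocols. For the counting program, strand setting, annotation and tool versions: not given in the sources used here. Of 59 members, 19 share exon bases with a gene on the other strand, and without a stated strand setting their reads cannot be told apart. Depth was 7850661 to 15012122 counts per library.

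Genes were kept by filterByExpr (minimum count 10), scaled by TMM and tested in edgeR 4.0.16 (R 4.3.3) with the quasi-likelihood F test, adjusted by Benjamini-Hochberg over 17715 genes with a threshold of 0.05. Adjusted p-values come from this fit unless another is named. SE is the absolute log2 fold change over the root of F, and 95% intervals use the t distribution with the fit's degrees of freedom. Positions and union exon lengths come from GENCODE M21 (mm10). Whether reads were counted over exons or whole genes is not stated, so shares and orders of genes per kilobase of exon are uncertain. Alternatives used DESeq2 1.42.0, limma 3.58.1, other scalings and filters, a replicate block and leaving out each library. The pipeline was tested on simulated data. By rule, values are given for called members and, in each role group, for the ATPase or the smallest adjusted p in each direction, and for the smallest adjusted p in each partner list; further genes were chosen after their values were seen. A single gene is counted among the members but is not reported here. Members, roles and lists were chosen with earlier results of these data known.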

Additional observations from a re-analysis of the deposited data

How the results depend on the processing

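The number of members called higher was 0 in the reported fit and 3 with DESeq2 or with no filter on low counts (Arid5b, Baz1a and Hells), and ran from 0 to 8 when single libraries were left out. The number called lower was 1, with 0 by limma-voom, 3 with no filter (Chd5, Arid5a and Smarca5-ps), and 0 to 14 when single libraries were left out. The number of partner genes called was 0, with 4 by DESeq2, 7 with no filter, and 0 to 24 when single libraries were left out. The members' median of -0.044 was -0.015 with library totals alone, 0.0012 with DESeq2, -0.0032 with no filter and -0.092 with a minimum count of 50, and ran from -0.042 to 0.0074 when single libraries were left out. Shares by raw counts in place of counts per kilobase differed by -8.80 percentage points for Smarca2 and 8.80 for Smarca4. With the replicate block 0 members were called higher and 1 lower (Chd5, log2 fold change -3.04, adjusted p = 0.0355), and 433 genes over the table in place of 730. Deviations of libraries with the same replicate number had a correlation of -0.092 across 17715 genes. With 2 libraries per group this cannot show whether replicate numbers pair the libraries, and the labels tie them to no animal or day. The cause of these shifts was not tested.

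Changes of sign concerned values near 0 or genes whose control libraries differed. With DESeq2 the log2 fold change was 0.0059 for Arid4a, 0.0060 for Chd1 and 0.0012 for Chd8, and with no filter 0.0016 for Arid4a and 0.00036 for Chd1. With a minimum count of 50 it was -0.047 for Baz1b, -0.017 for Chd4, -0.046 for Chd6, -0.013 for Ep400, -0.012 for Smarcad1 and -0.013 for Smarcb1. For Chd6 it was -0.0010 with limma-voom and -0.00061 with the replicate block. Leaving out single libraries gave ranges of -0.26 to 1.22 for Arid3a, -0.11 to 0.072 for Arid4a, -1.26 to 0.15 for Arid5a, -0.16 to 0.23 for Baz1b, -0.050 to 0.0074 for Chd1, -0.14 to 0.28 for Chd4, -0.069 to 0.11 for Chd6, -0.14 to 0.097 for Chd8, -0.35 to 0.17 for Chd9, -0.37 to 0.017 for Ino80, -0.49 to 0.41 for Ino80b, -0.11 to 0.046 for Ino80d, -0.099 to 0.23 for Smarcad1, -0.021 to 0.14 for Smarcb1 and -0.078 to 0.41 for Smarcd2. With 2 libraries per group the printed intervals set what could be detected.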
